A study of Sorghum bicolor and Setaria italica and Zea mays with 20 samples.

Results

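The whole leaf of the C3 grass *Brachypodium distachyon* was compared with that of the C4 grass *Setaria italica* by DNaseI-seq, a method in which nuclei are lightly digested with the enzyme DNaseI and the released ends are sequenced. Regions with many cuts were called by the authors as DNaseI hypersensitive sites (DHSs), and short protected stretches inside them as digital genomic footprints (DGFs). All intervals on the numbered chromosomes were taken, Bd1 to Bd5 in *B. distachyon* and scaffold_1 to scaffold_9 in *S. italica*. These were 36279 of the 36286 listed DHSs and 191015 of the 191046 listed DGFs in *B. distachyon*, and 40003 of 40216 DHSs and 119810 of 120468 DGFs in *S. italica*. Together they made up 387107 of the 1267540 DHSs and DGFs in all lists of the series.

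The 2 *B. distachyon* and 3 *S. italica* samples each held leaves of many plants and were combined into 1 list per species before deposit. *B. distachyon* was grown at 20°C, for 2 weeks with 14 h of light and 10 h of dark and for 1 week with 20 h of light and 4 h of dark, at a light intensity of 350 µmol and 65% humidity. It was harvested as seedlings of 21 d at Zeitgeber time 20, the hour counted from lights on. *S. italica* was grown at 28°C by day and 20°C by night with 12 h of light and 12 h of dark, at 400 µmol and 60% humidity, and its leaves 3 and 4 were taken at 18 d, between 4 and 6 h into the light period. Nuclei of *B. distachyon* came from flash-frozen, pulverised plants in an isolation buffer, those of *S. italica* from a sucrose gradient. Species, photosynthetic type, age, growth conditions, harvest time, tissue source, and nuclei isolation therefore differed together, and their effects cannot be told apart in any comparison below. Neither the labels nor the methods name an accession line, and the labelled tissue was not checked against marker genes because no gene annotation of these assemblies was used.

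In nuclei, most DNA is wrapped around histones and is poorly reached by enzymes. Promoters, enhancers, and other regulatory DNA are kept open where transcription factors and chromatin remodellers displace nucleosomes, and DNaseI cuts such DNA preferentially. A transcription factor that stays on its site can shield the few bases it covers, so that a footprint marks a candidate binding site within a wider open region. In C3 leaves photosynthesis runs mainly in mesophyll cells. In C4 leaves it is divided between mesophyll and bundle-sheath cells, and a whole leaf contains both, together with epidermis and veins.

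A typical DHS of each list shows how the measures fit together, chosen as the first in coordinate order with the median width and the median number of DGFs. In *B. distachyon* it lay on chromosome 1 from 17229395 to 17230879 (Bdistachyon_283_assembly_v2.0) and was 1485 bp wide. Its summit, the base at which the peak caller placed the highest signal of the peak, was at 17230277. Its 4 DGFs had lengths of 25, 13, 19, and 25 bp and centres 682, 231, and 129 bp before the summit and 123 bp after it. In *S. italica* the typical DHS lay on chromosome 2 from 8410621 to 8411615 (Sitalica_164_v2), was 995 bp wide, and had its summit at 8411468. Its 2 DGFs, of 23 and 25 bp, were centred 441 bp before and 81 bp after the summit. That the *B. distachyon* example was wider and had more DGFs followed from the way the examples were chosen. Its DGFs were closer to one another than those of the *S. italica* example. Over the whole lists the median distance between neighbouring DGFs was instead longer in *B. distachyon*, 190 bp against 167 bp.

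*B. distachyon* had wider DHSs with shorter gaps between them. The median width was 1485 bp (95% interval of the median 1472 to 1500) in *B. distachyon* and 995 bp (985 to 1004) in *S. italica*, a ratio of 1.49 (1.47 to 1.51). The intervals cover counting error over listed DHSs only, and since neighbouring DHSs are not independent and each species has 1 combined list, none of them measures the spread between plants. The central 50% of DHSs spanned 887 to 2472 bp in *B. distachyon* and 626 to 1543 bp in *S. italica*, so that the distributions overlapped broadly.

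The difference in width was most visible among broad DHSs. DHSs of at least 2000 bp were 34.7% of the *B. distachyon* list and 13.9% of the *S. italica* list, and those of at least 4000 bp were 9.27% and 1.05%, respectively. DHSs under 500 bp were 7.78% and 15.7%. Widths also varied more in *B. distachyon*, with a coefficient of variation of 0.792 against 0.674. The chromosomes did not overlap, since the 5 median widths in *B. distachyon* ran from 1397 to 1524 bp and the 9 in *S. italica* from 831.5 to 1046 bp. The lowest value in *S. italica* belonged to chromosome 8.

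Enrichment of the peaks over background moved with width between the species. The median fold enrichment given by the peak caller was 2.37 in *B. distachyon* and 4.44 in *S. italica*, and the lowest listed values were 1.91 and 3.20. The *S. italica* bundle-sheath list, from strands of the same species, lay between them in both measures, with a median fold enrichment of 3.12 and a median width of 1233 bp. Across all lists the order did not hold, because *Z. mays* whole leaf had the highest median enrichment, 9.44, and a median width of 1792 bp. The part that enrichment or sequencing depth, which the lists do not carry, had in the difference of width was not tested. Within each list wider DHSs had the higher enrichment, with Spearman's rho of 0.355 over 36279 DHSs and 0.368 over 40003.

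The gap between DHSs, measured from the end of one to the start of the next on the same chromosome, had a median of 2640.5 bp (2590 to 2694) in *B. distachyon* and 3825 bp (3767 to 3898) in *S. italica*. The ratio of *S. italica* to *B. distachyon* was 1.45 (1.41 to 1.49). Measured between summits, however, the medians were 4874 and 5166.5 bp, a ratio of 1.06. The median gaps thus differed by far more than the median distances between summits, which include the DHSs themselves. The gaps also went with the length of the genomes. Up to their last listed interval the chromosomes covered 272 Mb in *B. distachyon* and 401 Mb in *S. italica*, with 134 and 99.7 DHSs per Mb. After division by the covered length per DHS, the ratio of median gaps was 1.08 (1.05 to 1.11).

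**Figure D1:**
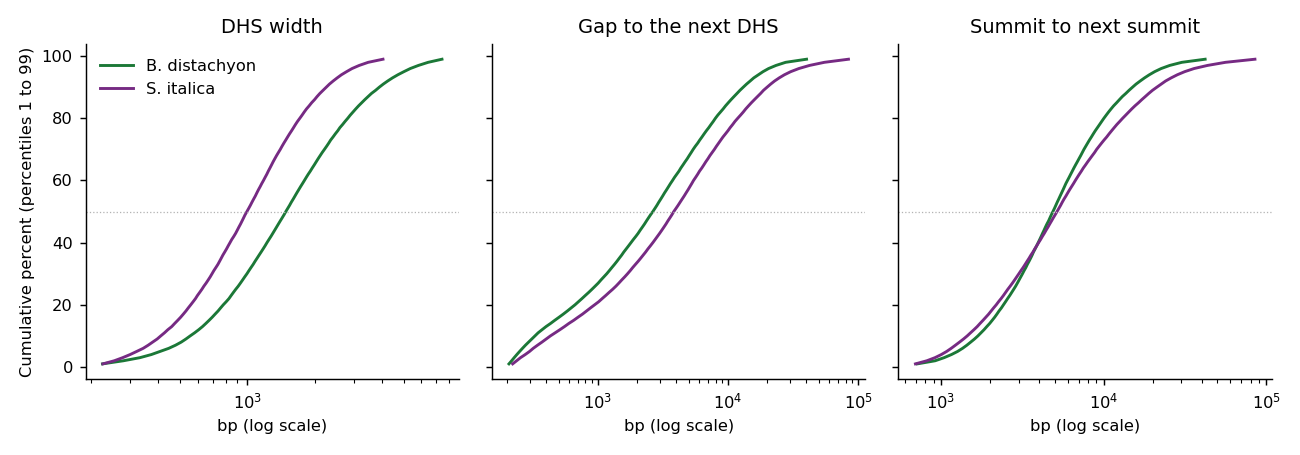
Cumulative distributions of DHS width, of the gap to the next DHS, and of the distance between neighbouring summits, as percentiles 1 to 99 in bp on log axes, for *B. distachyon* and *S. italica*. Widths and gaps are separated along most of their range, whereas the curves of summit distance cross between percentiles 38 and 39, with the shorter distances in *S. italica* below and in *B. distachyon* above.

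The long gaps set the genomes apart more than the typical ones. As the distributions show, the upper quartile of the summit distance was 8632 bp in *B. distachyon* against 10793 bp in *S. italica*, whereas the lower quartile was slightly higher in *B. distachyon*, 2799 against 2575 bp. Gaps over 20000 bp were 4.20% of all gaps in *B. distachyon* and 9.95% in *S. italica*, and held 29.7% and 50.3% of the summed gap length. The relative spread of gaps was similar, with coefficients of variation of 2.05 and 2.01. The widest gap also had nearly the same size in both, 570694 bp on *B. distachyon* chromosome 3 (25143536 to 25714229) and 571942 bp on *S. italica* chromosome 3 (41593717 to 42165658). The next were 489097 and 444832 bp, both on *B. distachyon* chromosome 4, and 448472 bp on chromosome 2 and 375305 bp on chromosome 9 in *S. italica*. Whether these gaps hold unmappable or unassembled sequence was not tested, as no genome sequence was used.

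Close neighbours were common in both species and more so in *B. distachyon*. Gaps under 1000 bp were 26.9% of gaps in *B. distachyon* and 20.8% in *S. italica*, while the shortest gaps were 198 and 205 bp. Joined into runs with gaps under 1000 bp, 54.1% of the *B. distachyon* DHSs and 63.2% of the *S. italica* DHSs stayed single. Runs of 5 or more DHSs numbered 201 and 77 and held 2.95% and 1.00% of the DHSs. The longest run had 7 DHSs in both species. It lay on *B. distachyon* chromosome 1 from 45447094 to 45462465 with 34 DGFs, and on *S. italica* chromosome 9 from 10894042 to 10903814 with 18 DGFs.

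Spacing changed in opposite directions along the chromosomes of the 2 species. In *B. distachyon* the median gap was 2953.5 bp (2876 to 3037) in the outer 40% of the chromosomes, 20% at each end, and 2346 bp (2239 to 2468) in the middle 20%. In *S. italica* it was 3786 bp (3707 to 3874) in the outer 40% and 4414 bp (4180 to 4665) in the middle 20%. Middle DHSs were narrower in *S. italica*, with a median of 926 bp against 1010 bp in the outer 40%, and had a mean of 2.64 against 3.08 DGFs. In *B. distachyon* the corresponding widths were 1487 and 1498 bp and the means 5.23 and 5.28 DGFs. Width and DGF number, unlike the gap, thus differed little with position along the chromosome there. The *S. italica* bundle-sheath list had gaps of 3902 bp in the outer and 3469 bp in the middle part, the order seen in *B. distachyon*, so that the order differed between the lists of *S. italica*.

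Width was almost unrelated to the neighbourhood of a DHS. Spearman's rho between the width and the distance to the nearest DHS was -0.071 in *B. distachyon* and -0.031 in *S. italica*, and that between the widths of neighbouring DHSs was 0.060 and 0.063. DHSs whose nearest neighbour was under 1000 bp away had a median width of 1565 bp in *B. distachyon* against 1001 bp in *S. italica*. Those over 5000 bp from any other had 1319 and 927 bp. Isolated DHSs were therefore somewhat narrower in both species. They carried DGFs at nearly the density of the crowded ones, 2.80 against 2.71 per kb in *B. distachyon* and 2.48 against 2.49 per kb in *S. italica*.

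**Figure D2:**
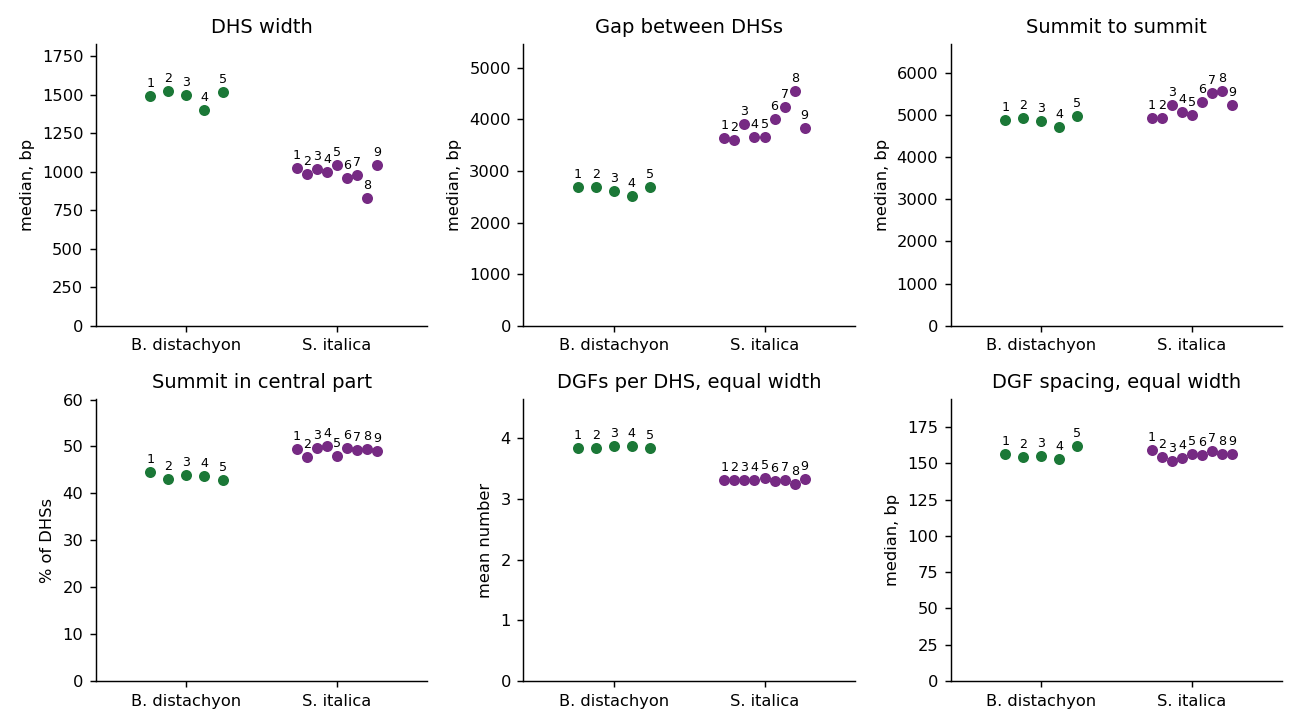
Values of the 5 *B. distachyon* and 9 *S. italica* chromosomes, each point 1 chromosome with its number, all axes from 0: median DHS width, gap, and summit distance in bp, percent of summits in the central part of the DHS (of 3 equal parts), and mean DGFs per DHS and median DGF spacing at equal DHS width. The species do not overlap in width, gap, summit position, or DGF number, and overlap in summit distance and DGF spacing.

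The plot by chromosome shows which differences held throughout the genomes. Median gaps ran from 2519 to 2695 bp over the *B. distachyon* chromosomes and from 3597.5 to 4553 bp over those of *S. italica*, with no overlap. Summit distances, from 4727 to 4984 bp and from 4929.5 to 5575 bp, did overlap. *S. italica* chromosome 8 stood lowest in DHS density, with 74.4 per Mb where the highest, chromosome 5, had 114, and it also had the longest median gap. Chromosomes of one species are parts of the same libraries and do not stand for replicates.

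Summits lay nearer to the middle of the DHS in *S. italica*, but much of this went with width. With each DHS divided into 3 equal parts, the summit fell in the central part in 43.8% (Wilson 95% interval, 43.3 to 44.3) of DHSs in *B. distachyon* and in 49.1% (48.6 to 49.6) in *S. italica*, a difference of -5.27 percentage points (-5.98 to -4.56). Over the chromosomes the shares ran from 42.9% to 44.5% and from 47.7% to 50.1%. In both species the share fell as DHSs became wider, from 59.9% under 500 bp to 31.0% at 4000 bp or more in *B. distachyon* and from 71.0% to 37.1% in *S. italica*. Central summits were thus less frequent in wide than in narrow DHSs of both species.

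To compare the species at equal width, DHSs were placed in classes of 100 bp, and the class values of both species were averaged with the same weights, the mean of the shares that each class held in the lists. The 47 classes from 100 to 4800 bp with at least 20 DHSs in both lists kept 34214 DHSs of *B. distachyon* and 39860 of *S. italica*. The share of central summits was then 46.2% and 47.2%, a difference of -0.93 points (-1.66 to -0.20). The sign was not the same at all widths. At 1000 to 1500 bp central summits were more frequent in *B. distachyon*, 49.5% (48.4 to 50.7) against 44.0% (43.0 to 45.0), while under 500 bp they were less frequent.

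Summits at the extreme ends and an uneven placement set the lists further apart. The outer 10% at either end held the summit in 6.12% of DHSs in *B. distachyon* and 2.73% in *S. italica*. In *B. distachyon* the first and last of the 3 parts, counted by increasing coordinate, held 28.2% and 28.0% of summits. In *S. italica* they held 26.9% and 24.0%. Summits of *S. italica* were thus shifted slightly to the lower coordinate, with a median offset from the DHS middle of -6.5 bp against 0 bp. Coordinates follow the assembly and not the direction of genes.

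Listed footprints were more numerous in *B. distachyon* in every width class compared. The mean number of DGFs per DHS was 5.27 in *B. distachyon* and 3.00 in *S. italica*, a ratio of 1.76, and the medians were 4 and 2. DHS width and DGF number were closely related, with Spearman's rho of 0.843 and 0.724. At equal width the means were 4.02 and 3.48, and the ratio was 1.16 (1.15 to 1.16). *B. distachyon* had the higher mean in 47 of 47 width classes. At 1000 to 1500 bp, for example, it had 3.61 DGFs per DHS against 3.09, and at 2000 to 3000 bp 6.56 against 5.58. The lists may include footprints that the study's filter against deproteinized DNA removed. Whether such footprints are equally frequent in both lists is not known. Their part in the differences of DGF number, occupied share, and spacing was not tested.

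**Figure D3:**
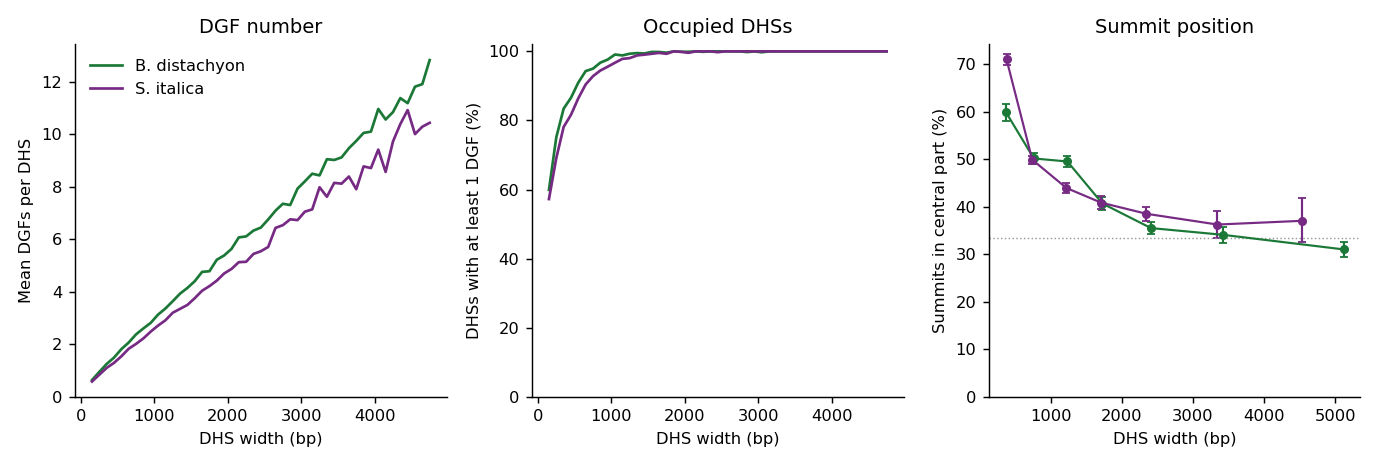
Mean DGFs per DHS and percent of DHSs with at least 1 DGF in 100-bp width classes, and percent of DHSs with the summit in the central part of 3 in 7 broader classes with 95% Wilson intervals, against DHS width in bp (axes of values from 0; the dotted line marks an even spread of summits). The *B. distachyon* line lies above that of *S. italica* for DGF number in all 47 classes, the occupied shares meet near 100% in wide DHSs, and the lines of summit position cross.

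Across chromosomes, with widths under 4000 bp in 500-bp classes, the mean number of DGFs ran from 3.84 to 3.87 in *B. distachyon* and from 3.24 to 3.35 in *S. italica*. The gap between the species was wider than the range within either. In both lists the density fell with width, from 3.46 DGFs per kb in DHSs under 500 bp to 2.54 at 4000 bp or more in *B. distachyon*, and from 3.02 to 2.25 in *S. italica*. A wide DHS thus held more footprints but fewer per base.

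The lists also differed in the strength of their footprints. The Wellington score, which compares cuts inside a footprint with those at its shoulders, is negative, is stronger the more negative it is, and depends on sequencing depth. Its median was -13.5 in *B. distachyon* and -20.0 in *S. italica*. When only the strongest 119810 DGFs of *B. distachyon* were kept, so that both lists had the same number, the ratio of DGFs at equal width was 0.718. This value was fixed largely by the cut itself, since the same number of DGFs was then spread over 69.9 Mb of DHSs in *B. distachyon* and 48.0 Mb in *S. italica*. With the stronger 50% of each list the ratio was 1.12.

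DHSs without any footprint were 2.79% of the *B. distachyon* list and 7.0% of the *S. italica* list. DHSs with a single DGF were 9.90% and 20.3%, and those with at least 10 were 13.3% and 1.75%. At equal width the occupied shares were 96.1% and 94.3%, a difference of 1.81 points (1.51 to 2.11). As the plot by width shows, the difference was found in narrow DHSs, in which 80.9% and 77.0% were occupied under 500 bp and 95.1% and 91.8% at 500 to 1000 bp. In 24 of 47 classes the shares were equal. With 119810 DGFs in each list, the same cut, the difference was -13.9 points.

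The DHSs with the most footprints were broad in both species. In *B. distachyon* 49 DGFs lay in a DHS of 10700 bp on chromosome 2 (49935395 to 49946094), 41 in one of 13729 bp on chromosome 1 (49679148 to 49692876), and 40 in one of 12416 bp on chromosome 1 (58586804 to 58599219). In *S. italica* 23 lay in a DHS of 4709 bp on chromosome 3 (6984976 to 6989684), 21 in one of 6711 bp on chromosome 1 (5497705 to 5504415), and 21 in one of 4378 bp on chromosome 9 (56442526 to 56446903). Per kb these DHSs held 4.58, 2.99, and 3.22 DGFs in *B. distachyon* and 4.88, 3.13, and 4.80 in *S. italica*. The higher numbers in these *B. distachyon* DHSs, which were also wider, were thus not higher per base. Over all DHSs of at least 4000 bp the density was higher in *B. distachyon*, 2.54 against 2.25 per kb. The summit of the leading DHS lay at 45.8% of its width in *B. distachyon* and at 70.3% in *S. italica*. Genes at these positions are not given, as the lists carry none.

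Footprints were slightly shorter in *B. distachyon*. All lengths were odd numbers from 11 to 25 bp, with means of 20.2 bp in *B. distachyon* against 21.1 bp in *S. italica*. The shortest length, 11 bp, made up 7.49% and 4.80% of DGFs, and its share rose with DHS width, from 6.32% to 8.15% and from 3.86% to 6.25%. Length also went with strength. The strongest 10% of DGFs had a mean length of 22.3 bp in *B. distachyon* against 22.4 bp in *S. italica*, and the weakest 10% had 19.4 and 20.8 bp. The species thus differed less among strong footprints than among weak ones.

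The strongest footprints by score differed between the lists. In *B. distachyon* 33 DGFs shared the lowest score, -1000, and the first 3 by position all lay in a single DHS of chromosome 1 with its summit at 35906171, at 35906062 to 35906086, 35906106 to 35906116, and 35906273 to 35906293. In *S. italica* whole leaf no DGF reached that score, whereas 2 did in its bundle-sheath list and 8 in *S. bicolor* whole leaf. Whether -1000 is a limit of the scoring is not given in the sources used here. The strongest DGFs of *S. italica* whole leaf had -813 on chromosome 6 (7806450 to 7806470), -418 on chromosome 7 (7227349 to 7227373), and -222 on chromosome 7 (30943638 to 30943662). The first 2 of these lay 82 and 96 bp after the summit, each as the only DGF of its DHS, and the last lay 258 bp before it.

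The distance between neighbouring footprints was close in both species once DHS width was held. Between the centres of neighbouring DGFs of the same DHS the median was 190 bp (189 to 192) over 155747 pairs in *B. distachyon* and 167 bp (166 to 169) over 82609 pairs in *S. italica*. At equal width both were 157 bp, with a ratio of 1.00 (0.991 to 1.01) over 46 classes from 200 to 4800 bp. The median rose with width in parallel, from 95 and 91 bp under 500 bp to 220 and 223 bp at 4000 bp or more. Over the chromosomes the values at equal width, 153 to 162 bp and 152 to 159 bp, overlapped. The similar medians therefore held although *B. distachyon* had more DGFs in DHSs of the same width.

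**Figure D4:**
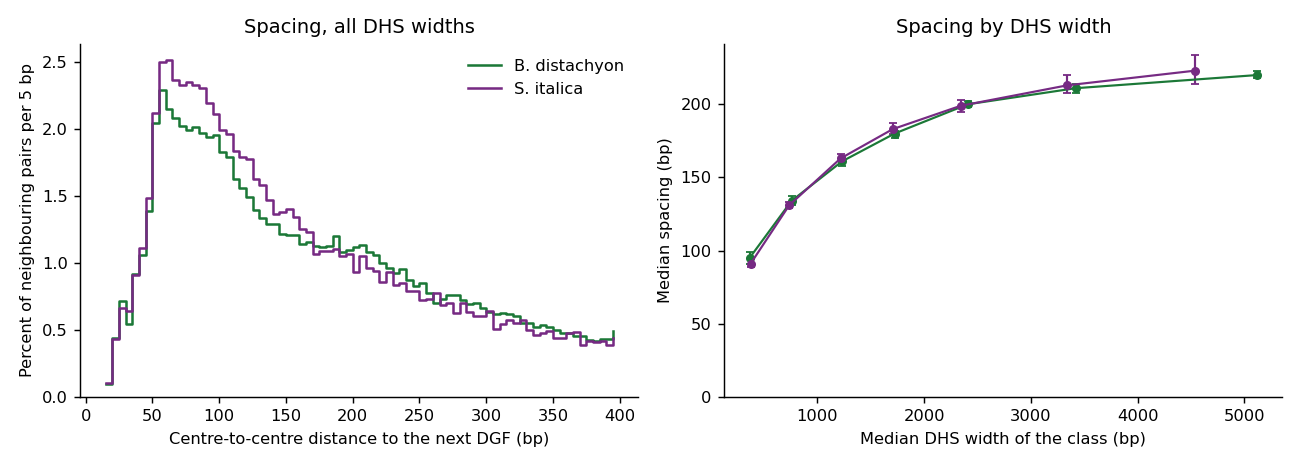
Left, percent of neighbouring DGF pairs per 5 bp of centre-to-centre distance, for distances below 400 bp and all DHS widths; right, median spacing in bp with its 95% interval in 7 classes of DHS width. Both distributions rise steeply to 55 to 65 bp and decline, and the medians by width lie almost on the same curve.

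The shape of the distribution was also shared. The plot of distances has its highest 5-bp bin at 55 to 60 bp in *B. distachyon* and 60 to 65 bp in *S. italica*, and the shortest distance was 16 bp in both. Distances under 50 bp were 5.17% and 5.35% of pairs. Distances over 500 bp were 14.1% and 11.9%, before any account of width. In DHSs of 1000 to 1500 bp the mean distance was 208 bp in *B. distachyon* against 221 bp in *S. italica*, against medians of 161 and 163 bp, so that the longer distances were the ones that differed.

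Where number and width were both held, the order was another. Over DHSs of 2 to 8 DGFs in 4 width ranges, the median distance was longer in *B. distachyon* in 25 combinations and in *S. italica* in 2, with ratios of *S. italica* to *B. distachyon* from 0.867 to 1.03 and a median of 0.937. With width alone held, and thus with more DGFs per DHS in *B. distachyon*, the stretch from the first to the last DGF covered a median of 47.6% of the DHS at 1000 to 1500 bp and 66.8% at 2000 to 3000 bp, against 43.1% and 60.1% in *S. italica*. The bare stretch before the first DGF was shorter in *B. distachyon*, with a median of 297 bp against 340 bp at 1000 to 1500 bp, while that after the last was 256 and 263 bp.

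Footprints gathered near the summit in both species, slightly more in *S. italica*. DGFs centred within 100 bp of the summit were 23.7% in *B. distachyon* and 24.8% in *S. italica* at equal width, a ratio of 0.953 (0.941 to 0.966). The share was higher in *S. italica* in 37 of 47 classes. It fell with width in both, from 69.4% and 72.5% under 500 bp to 8.17% and 9.99% at 4000 bp or more. Over the chromosomes, weighted by DHSs with widths under 4000 bp, the shares ran from 30.9% to 32.0% and from 33.0% to 33.9%. The summit base itself was covered by a DGF in 8.70% and 9.09% of DHSs.

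The difference depended on the side of the summit that was counted. On the side of lower coordinates alone the ratio was 0.769, and on the side of higher coordinates it was 1.06, the opposite direction. Both of these counts were chosen after the data had been seen. When only the strongest 119810 DGFs of *B. distachyon* were kept, the ratio was 1.05.

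**Figure D5:**
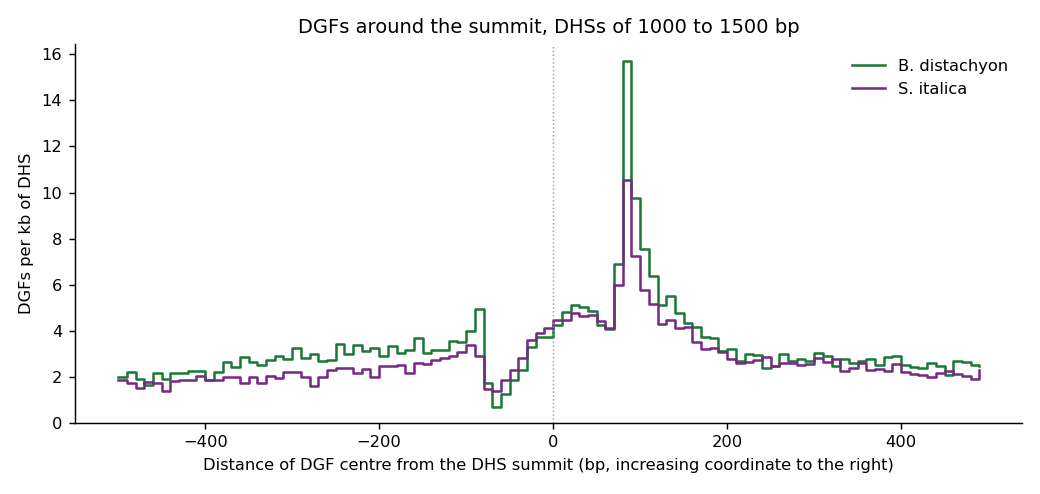
DGFs per kb of DHS in 10-bp bins of the distance from DGF centre to summit, in bp with increasing coordinate to the right and the value axis from 0, in DHSs of 1000 to 1500 bp. Both lines peak at 80 to 90 bp after the summit, at 15.7 per kb in *B. distachyon* and 10.5 in *S. italica*, and dip at 60 to 70 bp before it.

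The profile around the summit had the same asymmetric form in both species. In the 7369 *B. distachyon* DHSs of 1000 to 1500 bp the density of DGF centres peaked at 80 to 90 bp after the summit with 1154 DGFs, or 15.7 per kb, where the level 300 bp or more away was 2.48 per kb. In the 9317 *S. italica* DHSs the same bin held 982 DGFs, or 10.5 per kb, against 2.09 per kb. Within 200 bp of the summit the lowest bin lay at -70 to -60 bp in both, with 0.692 and 1.37 DGFs per kb. Farther out, *S. italica* had bins as low as this one. The contrast between peak and trough was thus sharper in *B. distachyon*, although its DGFs were less concentrated near the summit as a whole, with 1.75 times the distant level within 200 bp against 1.81 times.

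The position of the peak did not vary between chromosomes or lists. With all DHS widths, the bin of 80 to 90 bp was the highest within 200 bp of the summit on 5 of 5 *B. distachyon* and 9 of 9 *S. italica* chromosomes. At 1000 to 1500 bp it was the highest in the lists of *S. italica* bundle sheath, *S. bicolor* whole leaf, and *Z. mays* whole leaf. The trough lay at -70 to -60 bp on 5 of 5 and 7 of 9 chromosomes, chromosomes 4 and 8 of *S. italica* being the exceptions. DGF centres fell on the side of higher coordinates in 56.2% of cases in *B. distachyon* and 59.9% in *S. italica*, and this share was 55.4% to 57.5% and 59.2% to 60.9% over the chromosomes. Measured from the middle of the DHS in place of the summit, 51.5% and 53.9% lay on the higher side. Since coordinates follow the assembly, a side shared by all chromosomes is not a direction relative to genes, and its origin was not tested.

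With DHS width not held, strength went with the distance from the summit in *B. distachyon* and hardly in *S. italica*. The strongest 10% of *B. distachyon* DGFs had a median distance of 183 bp from the summit and the weakest 10% one of 452 bp. In *S. italica* the distances were 170 and 186 bp. The strongest and weakest 10% lay in DHSs with median widths of 2222 and 2105 bp in *B. distachyon* and of 1558 and 1016 bp in *S. italica*. Weak DGFs of *S. italica* thus lay in narrower DHSs, where a larger share of all DGFs is near the summit. DHS width therefore moved with these values and its part was not tested. Within 100 bp of the summit were 30.8% of the strongest and 16.3% of the weakest DGFs in *B. distachyon*, and 33.3% and 33.0% in *S. italica*.

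Other lists show how large these differences are beside those between tissues or between C4 species. *S. italica* bundle-sheath DHSs, compared with whole leaf, had a width ratio of 1.24, a ratio of gaps of whole leaf to bundle sheath of 1.07, and 1.08 times the DGFs at equal width, each smaller than the corresponding difference between *B. distachyon* and *S. italica*. DGF spacing at equal width, with a ratio of whole leaf to bundle sheath of 1.04 (1.03 to 1.05), differed more between the tissues than between the species. The share of DGFs near the summit had a ratio of bundle sheath to whole leaf of 1.07 (1.05 to 1.08), at least as far from 1 as that between the species. Between *B. distachyon* and *S. italica* bundle sheath the DGF ratio at equal width was 1.06 (1.06 to 1.07). *S. bicolor* is a C4 grass for which the study states the same chamber conditions, harvest window, and nuclei isolation as for *S. italica*. It had wider DHSs than *S. italica* by a ratio of 1.30 (1.28 to 1.32). It had fewer DGFs at equal width, at 0.927 (0.920 to 0.933) times the *S. italica* mean.

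In the placement of footprints the C4 species differed among themselves. DGFs of *S. bicolor* lay within 100 bp of the summit 1.19 times (1.18 to 1.21) as often as those of *S. italica* at equal width, and neighbouring DGFs were closer, with a ratio of *S. italica* to *S. bicolor* of 1.08 (1.07 to 1.09). The occupied shares of these lists differed by -0.10 points (-0.43 to 0.22). In *Z. mays*, whose footprints had not reached saturation with sequencing depth by the account of the study, the DGF number at equal width was 0.323 (0.319 to 0.327) times that of *S. italica*. At equal DHS width, DGF spacing and the share near the summit differed more between *S. italica* and *S. bicolor* than between *S. italica* and *B. distachyon*. For spacing, this order was found with width alone held. At equal DGF number per DHS, the ratio of *S. italica* to *B. distachyon* was 0.91 (0.90 to 0.92), and *S. bicolor* was not compared in that way. The causes of these differences were not tested.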

How the data were processed

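DNaseI-seq lists of whole leaf from *B. distachyon* (2 samples) and *S. italica* (3 samples) were analysed. The authors mapped reads with Bowtie2 to Bdistachyon_283_assembly_v2.0 and Sitalica_164_v2, called peaks with MACS2, kept DHSs reproducible between replicates by the irreproducible discovery rate, and found DGFs within them with Wellington. The submitters' processing notes name Bowtie2 and MACS2 without versions. Each deposited DHS has its position, summit, score, −log10 p-value, and enrichment as a ratio (fold) to background, all from MACS2 as run by the authors. Each deposited DGF has a position and the authors' Wellington score. The methods describe a filter of footprints against deproteinized DNA. The whole-leaf lists together hold more DGFs than the study counts after that filter, so that listed DGFs may include footprints it removed. Narrow or weak intervals below the authors' thresholds are not in the lists, and read depth is not given in the sources used here, so that numbers of DGFs can move with depth.

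Here, DGFs were assigned to the DHS holding their centre, and 0 DGFs lay outside DHSs in either list (1660 in *Z. mays* whole leaf, left out). Density per Mb used the covered length, from the start of each chromosome to the end of its last listed interval. Positions are printed counting from 1. Values at equal width were standardised over 100-bp width classes with at least 20 DHSs in both lists, weighted by DHSs for number, occupancy, and spacing and by DGFs for position. Medians carry 95% intervals from binomial order statistics, shares Wilson intervals, and differences of shares Newcombe intervals. Standardised values carry intervals from summed class variances. All cover counting error over listed intervals only. No test between species was made because replicates were combined before deposit. Regions named are, per species, the 3 DHSs with the most DGFs, the 3 widest gaps, the 3 strongest DGFs, and 1 typical DHS. The members, measures, and named regions were chosen with earlier results of these data known. The computations of DHS gap, DHS width, DGF number, and the share of DGFs near the summit were tested on simulated data. Those of summit position, occupancy, and DGF spacing were not. Python 3.11.15, NumPy 2.4.6, pandas 2.3.3, SciPy 1.17.1, and matplotlib 3.10.9 were used. Alternatives covered sequences, list lengths, score thresholds, width classes and weights, and definitions of gap, middle, and summit distance. Lists of enriched DGFs and bundle-sheath lists of *S. bicolor* and *Z. mays* were not used here.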

Additional observations from a re-analysis of the deposited data

How the results depend on the processing

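Of 51 recomputed values for the 7 comparisons, 24 stayed within the spread given by counting error, 22 moved, and 5 reversed. A value was counted as reversed by its direction alone, whatever its interval. This was done only where the main interval excluded equality, so that no DGF spacing value could be counted as reversed. The results for which sequences off the numbered chromosomes were added and the results under 50-bp and 500-bp width classes stayed within it. The gap ratio of 1.45 was 1.59 with 36279 DHSs in each list, 1.16 with the top 50% of DHSs by score, 1.06 between summits, and 1.08 after division by the covered length per DHS. The width ratio of 1.49 was 1.42 with 36279 DHSs in each list. The difference in central summits was -3.72 points for the middle 20% of the DHS and -0.93 at equal width. The DGF number ratio of 1.16 was 1.12 with the strongest 50% of DGFs, 1.76 without standardisation, and 0.718, reversed, with 119810 DGFs in each list, which by construction removes only weaker DGFs of *B. distachyon* and spreads equal numbers over unequal DHS lengths. The difference in occupied DHSs of 1.81 points was 1.42 with *B. distachyon* widths, 2.21 with *S. italica* widths, 8.63 with the strongest 50% of DGFs, 4.22 without standardisation, and -13.9, reversed, with equal DGF numbers. The DGF spacing ratio of 1.00 was 0.969 with the strongest 50% of DGFs, 0.963 with equal DGF numbers, 0.879 without standardisation, and 0.911 at equal DGF number per DHS. The ratio of DGFs near the summit, 0.953, was 0.983 with the strongest 50%, 0.655 without standardisation, 0.877 within 50 bp, and 0.991 within 200 bp. It reversed to 1.05 with equal DGF numbers. Under 3 alternatives chosen after seeing the data it was 0.769 on the lower-coordinate side, 1.06, reversed, on the higher, and 1.01 around the middle of the DHS. The last was counted as reversed, but its interval, 0.994 to 1.024, included equality. Apart from the removal of weaker DGFs, the cause was not tested. No paired analysis was possible because replicates were combined into 1 list per species before deposit, which also prevents leaving out a replicate. The lists carry no depth. By the subsampling that the study describes, DGF numbers were near saturation in *B. distachyon*, *S. italica*, and *S. bicolor* and not in *Z. mays*.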

Other observations

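The DGFs carry serial numbers in their names. In *B. distachyon* they ran from 36287 to 532592, so that the first followed the 36286 listed DHSs, and 38.5% of the 496306 numbers were in the list. In *S. italica* whole leaf they ran from 40217 to 668272, after 40216 DHSs, and 19.2% of 628056 numbers were listed. The shares were 32.4% in *S. italica* bundle sheath, 25.9% in *S. bicolor* whole leaf, and 70.1% in *Z. mays* whole leaf. What the missing numbers stood for is not given in the sources used here.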
